A study of Mus musculus with 6 samples.

Results

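The plasminogen activators, the urokinase receptor and the inhibitors of the activators were examined in follicles dissected from the ovaries of young and old mice at the secondary stage. The group listed 5 genes, Plau, Plat, Plaur, Serpine2 and Serpinb2, and its members were the probe sets whose annotated symbol was one of these genes alone. Of the 5 genes, 4 were measured by 6 probe sets, among 18193 genes tested with 34945 probe sets, and Serpine2 was not analysed here. The genes were selected on a shared pathway with the differences between the ages already known, among them that of Plau, so their own differences are given as a description with no test. RNA came from 3 samples of each age, all from female C57BL/6J mice, with no genetic change or treatment named. The methods name the mice as free of specific pathogens, while the authors write that some viruses might have infected them. Infection was not examined here. The young mice were 9 weeks old and the old mice 32 weeks old. Follicles were freed from the ovary with needles, but how many mice and follicles each sample pooled is not stated in the labels or the methods. The p-values given for other genes therefore measure the spread between these samples.

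Plasminogen is an inactive precursor made mainly in the liver, and limited cleavage turns it into plasmin, a serine protease that dissolves fibrin, degrades matrix proteins and activates latent matrix proteases and growth factors. Urokinase, encoded by Plau, and tissue-type plasminogen activator, encoded by Plat, are the proteases that make this cut. Urokinase works at the cell surface, held by its receptor from Plaur, while inhibitors of the serpin family, such as those from Serpinb2 and Serpine2, trap the activators in inactive complexes. In the ovary the system is best known from ovulation, when granulosa cells release plasminogen activators as the follicle wall is opened. In the mouse oocyte, Plat mRNA is stored without being translated until meiotic maturation.

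The values were intensities from a 3' expression array of the mouse genome, normalized by the authors with RMA, and are given here as log2 intensity. On this scale the array medians lay between 4.93 and 4.95, the lower quartiles between 3.13 and 3.24, and the highest values between 13.68 and 13.76. The table used here held no detection call, so dim probe sets cannot be separated from background. Levels of different genes are not set against each other, since each probe binds with its own strength. The oocyte and granulosa cell genes that define a follicle were bright at both ages, for example Zp3 of the zona pellucida at 11.96 and 11.42, and Amh, the gene of anti-Müllerian hormone, at 10.04 and 9.86 in the young and old samples (these were picked after their values were seen). The control probe sets near the 3' and the 5' end of Gapdh differed by 0.47 ± 0.014 in young and by 1.51 ± 0.0048 in old follicles (SD, n = 3 each), and those of beta-actin by 1.48 ± 0.033 and 2.53 ± 0.050, both without overlap (exact two-sided permutation test, p = 0.1, the smallest p possible here). How far each member's probe set lies from the 3' end was not analysed, and the part of these differences in the results below was not tested.

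Plau, the urokinase gene, was lower in follicles from the old mouse ovaries at both of its probe sets. At the brighter probe set, 1422139_at, the 3 young samples had 6.11, 6.23 and 6.40, against 4.90, 4.61 and 5.001 for the 3 old samples (log2 intensity). Every young sample lay above every old sample, with a gap of 1.11 between the closest pair, and the old values were near the array median. The log2 difference, old minus young, was -1.41 (standard error 0.12), which is a 2.66-fold lower intensity in the old samples. The SD was 0.14 within the young and 0.21 within the old samples. Calls needed a 2-fold difference or more together with an adjusted p from limma no higher than 0.05. Plau met this rule with lower levels in old follicles, which describes the values it was chosen on and is no test of them. With each sample in turn left out, its difference lay between -1.49 and -1.30. In whole follicles, fewer cells that make Plau and less Plau RNA per cell cannot be told apart. The 3' to 5' differences of Gapdh and beta-actin also separated the same samples by age, and their part in the value of Plau was not tested.

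The dimmer probe set of Plau, 1422138_at, was annotated with the same transcript and ran the same way at a smaller size. The young follicles gave 3.61, 4.03 and 3.83 and the old follicles 3.28, 3.10 and 3.03 (log2 intensity). The groups did not overlap, and the gap was 0.33. Its log2 difference was -0.69 (standard error 0.11), under a fold of 2, and its old values lay around the lower quartile of the arrays. The size of the difference in Plau thus depended on the probe set, and with both probe sets averaged it was -1.05.

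**Figure D1:**
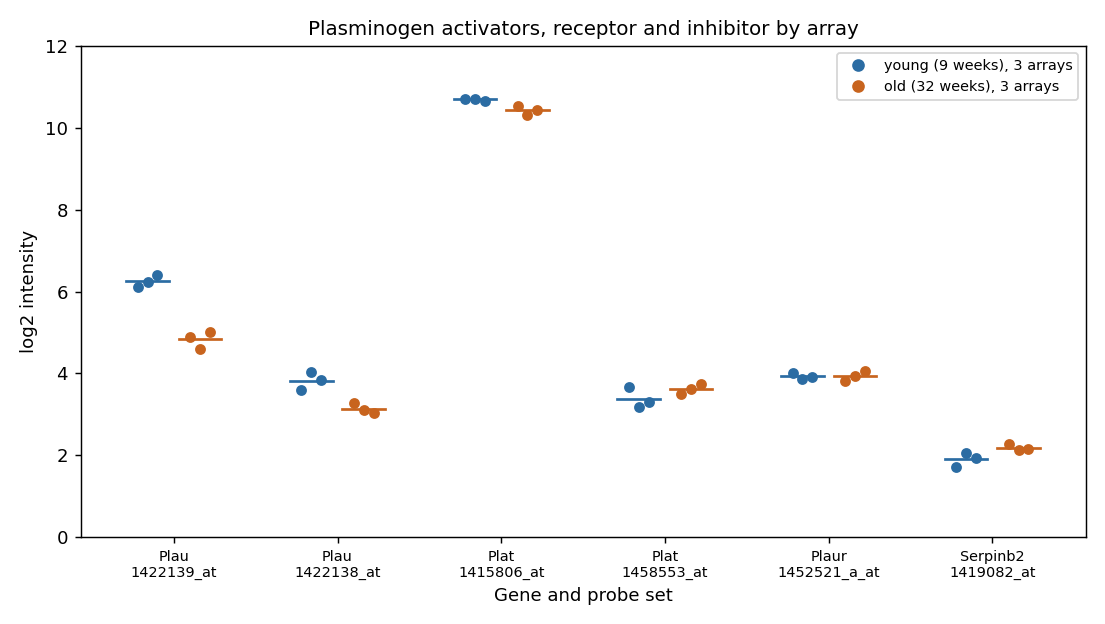
Log2 intensity (vertical axis) of the 6 probe sets of Plau, Plat, Plaur and Serpinb2, with 1 point per array, blue for the 3 young and orange for the 3 old samples, and a line at each group mean. The brighter probe set of Plau shows the widest gap, from 6.25 to 4.84 in the means, while Plaur lies at 3.94 in both groups.

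Plat, the gene of tissue-type plasminogen activator, had a bright and a dim probe set, and their differences had opposite signs. The bright probe set, 1415806_at, read 10.71, 10.71 and 10.66 for young follicles, against 10.52, 10.32 and 10.44 for old follicles (log2 intensity). The 3 old samples were all below the 3 young samples, by a gap of 0.14. The log2 difference was -0.26 (standard error 0.06), a 1.20-fold lower intensity, and Plat was not called. The dim probe set, 1458553_at, read 3.67, 3.18 and 3.30 for young follicles, against 3.50, 3.61 and 3.75 for old follicles. These groups overlapped, since the first young sample was above the first and second old samples. Its log2 difference was 0.23 (standard error 0.13), and with both probe sets averaged Plat was at -0.02. The bright probe set varied less within each group, with SDs of 0.025 and 0.10, than the dim one, with 0.26 and 0.12.

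Oocyte markers differed in the same direction as the bright probe set of Plat and by a like amount. Among 15 measured oocyte markers, 11 passed an adjusted p of 0.05 with lower levels in old follicles and none with higher levels, with a median log2 difference of -0.26. Their summed intensity ran from 35777 to 37046 over young and from 30937 to 31585 over old samples. The brightest probe sets weigh most in such a sum, here and for the marker lists below, so it does not measure an amount of cells. The part of these markers in the value of Plat was not tested.

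Plaur, the gene of the urokinase receptor, had a mean of 3.94 at both ages. Its single probe set, 1452521_a_at, read 4.01, 3.88 and 3.92 for young follicles, against 3.82, 3.94 and 4.06 for old follicles (log2 intensity). The groups overlapped, with the lowest and the highest value both in the old samples. The log2 difference was 0.0028 (standard error 0.076), and over the 6 arrays Plaur ranged over 0.25. The sign of so small a difference turned with the normalization and with single samples, between -0.070 and 0.065. All 6 values were under the array medians.

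Serpinb2 encodes plasminogen activator inhibitor 2, which inhibits urokinase and is made by macrophages and by epithelia under stress. Its probe set, 1419082_at, read 1.73, 2.05 and 1.93 for young follicles, against 2.29, 2.12 and 2.16 for old follicles (log2 intensity). The 3 old values were above the 3 young values by a gap of 0.070. The log2 difference was 0.29 (standard error 0.09), and Serpinb2 was not called. All 6 values lay below the lower quartiles of their arrays, close to the lowest intensities measured. The markers of leukocytes and of the ovarian surface epithelium were also higher in old follicles, with median log2 differences of 0.78 and 0.63, and their part in the value of Serpinb2 was not tested.

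Of the 4 members, 1 was called lower and none was called higher, where 0.126% of all genes tested were called lower and 0.638% higher. The groups did not overlap in 3 of the 4, with the old samples lower for Plau and Plat and higher for Serpinb2. Over all genes tested, the old samples were all lower in 23.7% and all higher in 18.9%. Of the 6 probe sets, 3 did not overlap with the old samples lower and 1 with the old samples higher, against 23.7% and 17.6% of all probe sets. Since the genes were chosen with these differences known, nothing is read from the shares.

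**Figure D2:**
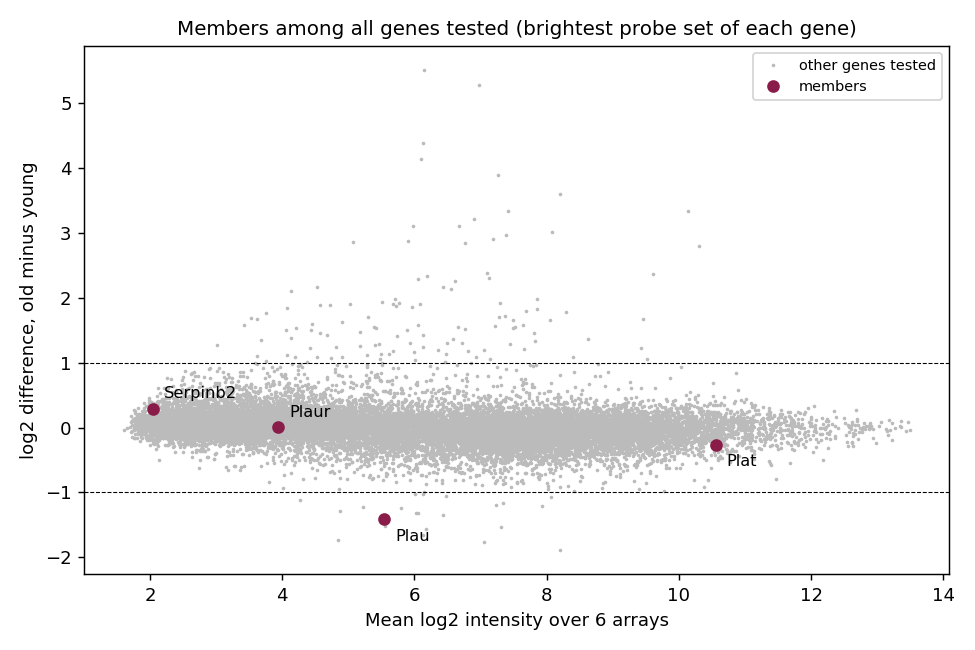
Log2 difference, old minus young (vertical axis), against the mean log2 intensity over the 6 arrays (horizontal axis) for all 18193 genes tested, with the 4 members in red and dashed lines at a fold of 2. Plau lies at -1.41, below the lower line, while Plat, Plaur and Serpinb2 lie between the lines.

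The promoter sequences of Plaur and Serpinb2 are shown because the receptor and the inhibitor have binding motifs of AP-1, a transcription factor of the Fos and Jun families, close to their starts. They come from RefSeq on build GRCm38.p6 and reach from 250 bases before to 50 bases after the start, and promoters were matched for Plaur, Serpinb2 and Serpine2, 3 of the 5 listed genes. Each is printed 5′ to 3′ on the gene's strand, with the AP-1 motif TGANTCA, searched on both strands, in capitals.
Plaur, chr7:24462233-24462532, plus strand: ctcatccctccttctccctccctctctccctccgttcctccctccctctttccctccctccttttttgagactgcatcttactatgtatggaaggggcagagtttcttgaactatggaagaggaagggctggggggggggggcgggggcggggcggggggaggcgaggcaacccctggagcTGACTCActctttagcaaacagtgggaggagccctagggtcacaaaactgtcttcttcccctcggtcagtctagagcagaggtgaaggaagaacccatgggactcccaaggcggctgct
Serpinb2, chr1:107511173-107511472, plus strand, the upstream of 2 overlapping promoters: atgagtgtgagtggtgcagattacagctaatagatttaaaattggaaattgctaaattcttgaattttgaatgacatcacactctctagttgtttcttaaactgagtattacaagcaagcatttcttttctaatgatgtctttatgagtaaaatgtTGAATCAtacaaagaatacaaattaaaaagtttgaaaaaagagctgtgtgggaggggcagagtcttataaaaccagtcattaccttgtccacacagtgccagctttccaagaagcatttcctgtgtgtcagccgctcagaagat
In Plaur the match TGACTCA began at position -69 from the start, and in this promoter of Serpinb2 the match TGAATCA began at position -94. The second promoter of Serpinb2 held the same site, and that of Serpine2 held none. Of all 32851 promoters of this length, 7.81% held the AP-1 motif. The GC box GGGCGG was found 3 times in Plaur, 6 times in Serpine2 and not in Serpinb2, against 35.7% of all promoters. In Plaur and likewise in Serpine2, 2 of the matches share 1 base. The TATA box TATAAA was found in both promoters of Serpinb2, against 13.6%, and the cyclic AMP response element TGACGTCA in none of the 3 genes, against 1.79%. None of these matches overlapped with one of another kind. A match is a description of the letters, and Plaur and Serpinb2 were not called.

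Among the genes tested, those with profiles nearest to the brighter probe set of Plau were chosen by the smallest root mean square difference of the mean-centred log2 values over the 6 arrays. The nearest was Cxadr, which encodes a cell adhesion protein that also serves as the receptor of coxsackieviruses and adenoviruses, with a root mean square difference of 0.085 and Pearson's r of 0.995. Gm6600 followed with 0.14, Taf1b, which encodes a subunit of the RNA polymerase I machinery, with 0.15, Fbxw14, an F-box protein gene, with 0.19 and 4632415L05Rik with 0.20. Their log2 differences were -1.32, -1.25, -1.36, -1.32 and -1.11, beside -1.41 for Plau. All of these genes were picked for a drop of this size, so the likeness is a description of 6 arrays in 2 groups.

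For 3 of these 5 genes other probe sets were measured. The other 4 probe sets of Cxadr were between 0.033 and 0.14, those of Gm6600 were at -0.40 and -0.075, and those of 4632415L05Rik were at -0.12 and 0.22 (log2 difference). The dimmer probe set of Plau was at -0.69. Taf1b and Fbxw14 had 1 probe set each.

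**Figure D3:**
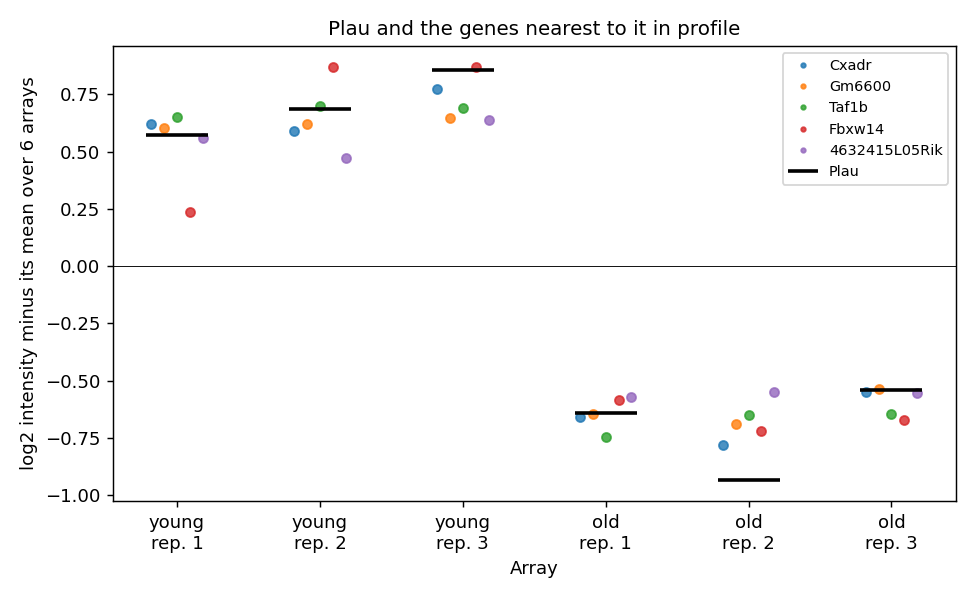
Log2 intensity minus its mean over the 6 arrays (vertical axis) for Plau (black bars) and the 5 genes nearest to it in profile (coloured points), by array. All lie above 0 in the young and below 0 in the old samples, and Plau has the lowest value of all in the second old sample.

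The other genes of the plasmin system showed a single called gene in lists of 90 genes written from general knowledge, 84 of which were measured. These lists and the marker lists were chosen with earlier results of these data known, so their counts and p-values are no independent test. Among the 84 genes, Serping1 was called higher and none was called lower. With the adjusted p alone and no fold minimum, 17 were higher, 11 were lower and 56 did not pass, and over all genes tested 10.1% were higher and 13.3% lower on this rule. The median log2 difference of the 84 genes was 0.05, beside -0.0042 over all genes tested.

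Of 23 measured genes for plasmin formation, receptors and clearance, 4 rose and 1 fell at the adjusted p alone. Mrc2, which encodes a collagen receptor that also associates with the urokinase receptor, had 6.87, 6.74 and 6.73 in young follicles, against 6.20, 6.33 and 6.20 in old follicles (log2 intensity). It fell by 0.54 on the log2 scale (standard error 0.07, adjusted p = 0.0020 from limma), and its dimmer probe set was at -0.40. Masp1, a serine protease gene of the lectin pathway of complement, rose by 0.43 (adjusted p = 0.0046 from limma), with 3 of its 4 other probe sets between 0.37 and 0.47 and the other at 0.015. Lrpap1, a chaperone of the receptors that clear activator and inhibitor complexes, rose by 0.32 (adjusted p = 0.0053 from limma) at its brightest probe set. Its other 3 probe sets were at 0.10, 0.10 and 0.17, overlapped and did not pass.

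The following genes of the same list were picked after their values were seen, for their roles around plasminogen, and did not pass the test. Plg, the gene of plasminogen itself, had 2.82 ± 0.13 in young and 2.91 ± 0.12 in old follicles (log2 intensity, SD, n = 3 each), below the lower quartile of the arrays. The plasminogen receptor gene Plgrkt had a log2 difference of -0.07 (standard error 0.06). Anxa2 and S100a10, whose proteins form a complex that holds plasminogen and Plat's product at the surface, were at 0.03 and 0.05. Lrp1, the receptor that takes up urokinase bound to its inhibitor, was at 0.14 (standard error 0.05, adjusted p = 0.098 from limma).

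Of 19 measured genes listed as other inhibitors, 4 rose and 1 fell at the adjusted p alone. Whether each listed gene inhibits plasmin or its activators was not checked. Serping1, which encodes the C1 inhibitor, a serpin that blocks complement and contact system proteases and also plasmin, had 5.82, 5.76 and 5.70 in young follicles, against 7.01, 6.93 and 6.91 in old follicles. It rose by 1.19 on the log2 scale (standard error 0.06, adjusted p = 3.2e-05 from limma). Tfpi, the gene of tissue factor pathway inhibitor, which restrains the start of clotting, went from 8.06 ± 0.12 to 7.21 ± 0.077 (SD, n = 3 each), a log2 difference of -0.85 (adjusted p = 5.3e-04 from limma). Its other 3 probe sets were at -0.32, -0.11 and 0.17, so the fall of Tfpi depended on the probe set. Serpinb6b, a serpin of the same clade as Serpinb2, rose by 0.37 (adjusted p = 0.013 from limma). Serpinf2, the gene of the main plasmin inhibitor, picked after its value was seen, was at 0.02.

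Of 42 measured plasmin targets, matrix proteases and their inhibitors, 9 rose and 9 fell at the adjusted p alone, and none was called. Mmp14, which encodes a membrane-bound metalloproteinase that activates the product of Mmp2, had 8.97, 8.96 and 9.02 in young follicles, against 8.59, 8.61 and 8.60 in old follicles. It fell by 0.39 on the log2 scale (standard error 0.05, adjusted p = 0.0021 from limma), with its other probe sets at -0.55 and -0.046. Mmp2, named after its value was seen, fell by 0.41 at the brighter of its 2 probe sets (adjusted p = 0.0065 from limma). The other is not given here. The protease gene Adamts1, which acts on the matrix of the follicle at ovulation, had 5.35, 5.56 and 5.47 in young follicles, against 6.09, 6.45 and 6.21 in old follicles, and rose by 0.79 (standard error 0.10, adjusted p = 0.0023 from limma). Timp1, an inhibitor of metalloproteinases, rose by 0.57 (adjusted p = 0.0046 from limma). The 3 old samples of Timp1 lay within 8.30 and 8.31, while the young samples ran from 7.59 to 7.93.

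**Figure D4:**
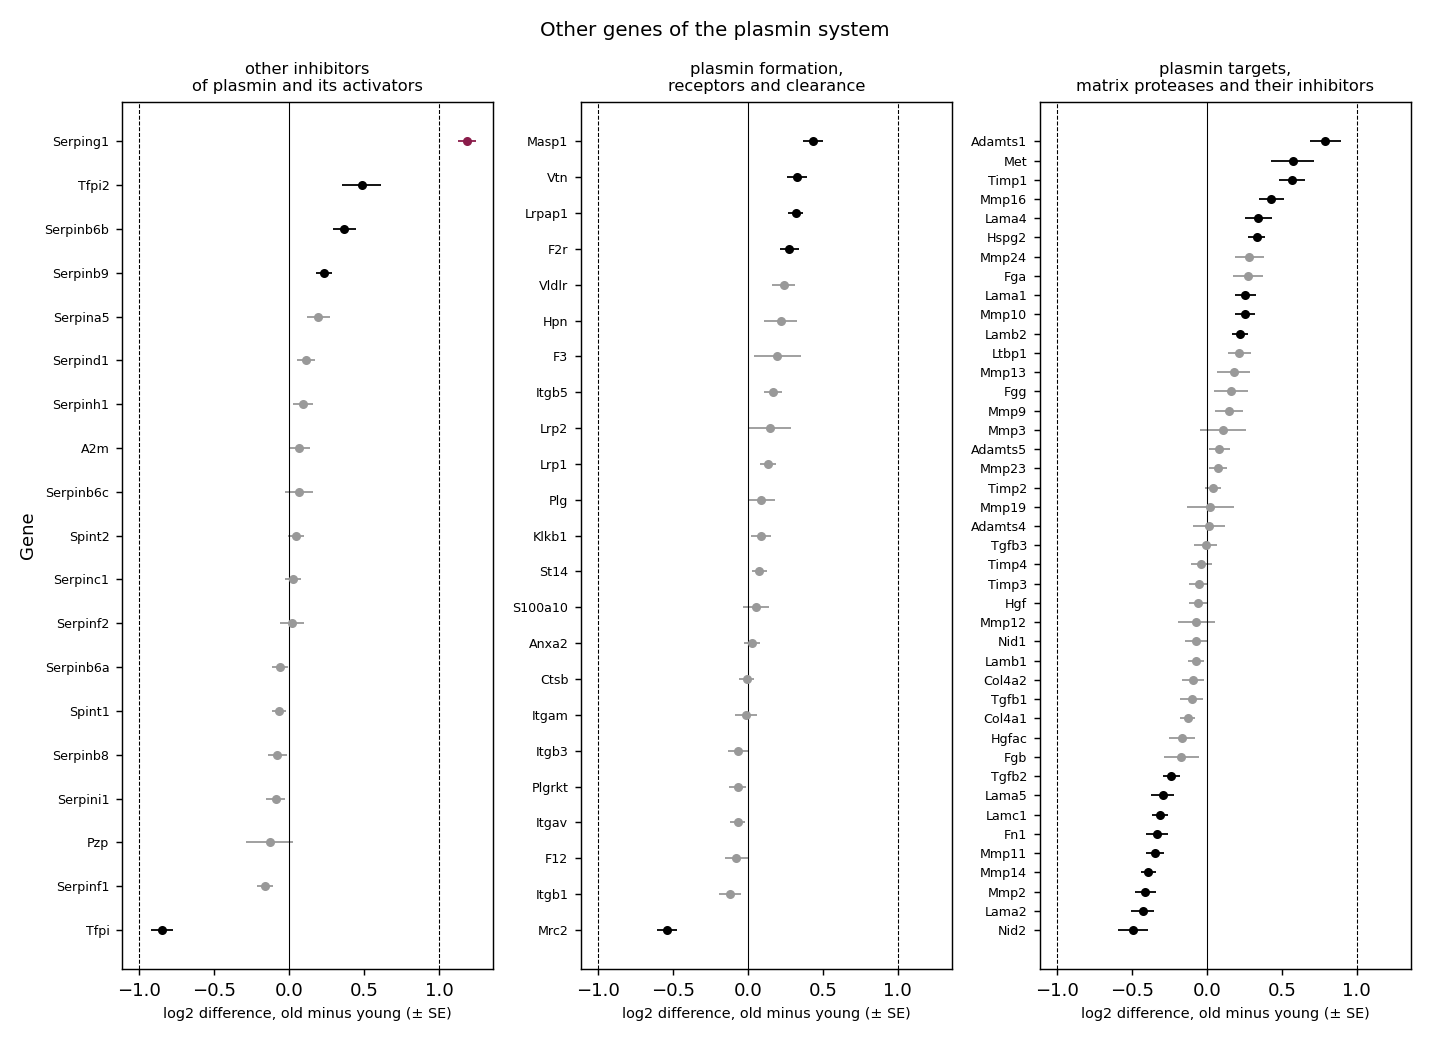
Log2 difference, old minus young, with its standard error (horizontal axis) for the 84 measured genes of the 3 plasmin system lists (vertical axis, 1 gene per line). Grey genes did not pass the adjusted p, black genes passed it under a fold of 2, and Serping1 in red was called at 1.19, beyond the dashed line.

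Many markers of cells other than oocytes and granulosa cells were higher in the same old samples in which Plau was lower. Of 20 measured markers of macrophages and other leukocytes, 5 were called higher, Ctss, S100a8, Mpeg1, Cd52 and Ms4a7, and 15 rose and 1 fell at the adjusted p alone. Their summed intensity ran from 585 to 590 over young and from 949 to 995 over old samples. The marker that fell was Lyz2 (-0.32), while Adgre1 (0.20), Cd68 (0.20), Cd14 (-0.07) and Itgam did not pass. S100a8 had 3.44, 2.66 and 2.93 in young samples, around the lower quartile of the arrays. These details were picked after the values were seen. Of 13 measured markers of the ovarian surface epithelium, 4 were called higher, Krt7, Krt19, Upk3b and Upk1b, and 10 rose and 1 fell at the adjusted p alone, with sums of 1852 to 1962 over young and 2144 to 2183 over old samples. Of 15 theca and stroma markers, 3 were called higher, the steroidogenic genes Star (1.87) and Cyp11a1 (1.34) and the smooth muscle gene Tagln (1.06), and 8 rose and 2 fell at the adjusted p alone. The other 2 probe sets of Cyp11a1 were at 0.051 and 0.040 and overlapped, so its rise rested on 1 of 3 probe sets. The 2 that fell were Col1a2 (-0.43) and Tcf21 (-0.38), and the steroidogenic gene Cyp17a1 overlapped at -0.11. These were named after their values were seen. The theca and stroma sum ran from 8144 to 8484 over young and from 9060 to 9088 over old samples. Of 11 endothelial markers none was called, 5 rose and 1 fell at the adjusted p alone, and the sum was 431 to 438 over young and 530 to 563 over old samples. Among the leukocyte markers Itgam, also in the list of plasmin receptors and picked after its values were seen, lay below the lower quartile of the arrays. Its means were 2.16 in young and 2.15 in old samples.

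Granulosa cell markers had a median log2 difference of 0.04 among 14 measured, and none was called. At the adjusted p alone 2 were lower, Gatm (-0.75) and Kitl (-0.43), and 2 were higher, Gja1 (0.28) and Fst (0.21). These were named after their values were seen. The summed intensity of the granulosa list ran from 39892 to 41423 over young and from 41647 to 42348 over old samples, without overlap. Plau was thus lower by 1.41 in samples where the granulosa list had a median of 0.04 with genes on both sides. The oocyte list was at -0.26 and the lists of other cells had medians between 0.17 and 0.78. Which cells the measured Plau RNA came from was not analysed, and the part of these markers in the results for Plau and the other plasmin system genes was not tested.

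**Figure D5:**
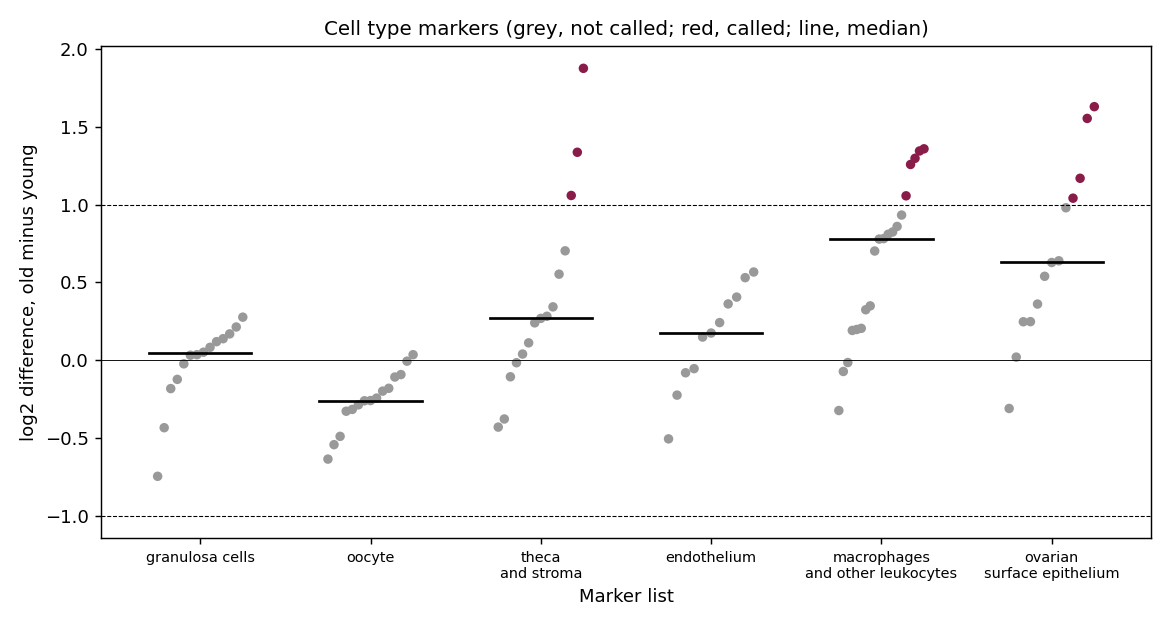
Log2 difference, old minus young (vertical axis), of the measured markers of 6 cell types (horizontal axis), with 1 point per gene, red where called, and a line at the median of each list. The medians run from -0.26 for the oocyte to 0.78 for macrophages and other leukocytes.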

How the data were processed

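The 6 samples of follicle RNA, 3 per age, were hybridised to 1 Affymetrix array each. The authors normalized the scans with RMA (no version is named) and deposited intensity values on a linear scale, from 2.62 to 13880 and all above 0. Log2 of the intensity was taken with no pseudocount. Probe sets with 1 symbol were kept and symbols were updated through RefSeq (GRCm38.p6), which held 18032 of 18194 gene IDs. The brightest probe set by its mean over the 6 arrays stood for its gene. Where a gene is given with no other probe set, others may have been measured and can differ from it. Old was compared with young with lmFit and eBayes of limma 3.58.1 (R 4.3.3), two-sided, with Benjamini-Hochberg adjustment over 18193 genes or, for probe sets, over 34945. Calls needed a fold of 2 and an adjusted limma p of 0.05, the size of the methods' limits, which there applied to SAM's q-value. SAM, the methods' test, was run as an alternative with all 20 label assignments, beside other probe set rules, normalizations, priors, weights, fold minimums, a replicate block and each sample left out. The fit was tested on simulated data. Named genes were all members, called genes and the 3 with the smallest p per pathway list, and the 5 genes nearest to a called member, with exceptions stated. Members and lists were chosen with earlier results of these data known. Arrays have no depth, and 3 per group limit the precision.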

Additional observations from a re-analysis of the deposited data

How the results depend on the processing

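The log2 difference of Plau lay between -1.49 and -1.05 over the 18 alternatives run and met the call rule in each, which describes the values it was chosen on and is no independent support. With no fold minimum 2 members were called, Plat at -0.26 being the other, against 1. With both probe sets averaged, Plat did not pass the adjusted p of 0.05. Nor did it pass with 1 sample left out, except without the first old sample. The same rule called 3 member probe sets, 28 genes of the plasmin system and 4257 of all 18193 genes, against 1, 1 and 139. Over all genes, 13.3% were lower and 10.1% higher, and the share of all probe sets was not counted. A fold of at least 1.5 gave 2 member probe sets, 3 genes of the plasmin system and 617 genes. These changes follow from the lower fold alone. Plaur went from 0.0028 to -0.070 with quantile and -0.054 with cyclic loess normalization, and leaving out 1 sample gave -0.059 to 0.065; the cause was not tested. Serpinb2 stayed between 0.20 and 0.36 and was not called. Without dim genes, Plaur and Serpinb2 gave no value. SAM called 140 genes in all.

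Samples with the same replicate number did not deviate together, with correlations of 0.053, -0.00030 and 0.043 across genes, and not every sample correlated best with its own number. With the replicate number as a replicate block, 140 genes were called, against 139, and the calls of the members did not change. The 4 dimmest of the 6 probe sets lay under the array medians, and without detection calls their differences are the least certain.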
